A study of Mus musculus with 6 samples.

Results

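The genes described here encode the auxiliary subunits of the AMPA receptor, the main fast glutamate receptor of the brain, and are followed in the hippocampus of mice injected under the skin with substance P (SP) or with saline (vehicle). They are 10 of the 55421 genes in the deposited table and were taken by gene symbol. The set holds the type I TARPs *Cacng2*, *Cacng3*, *Cacng4* and *Cacng8*, the type II TARP *Cacng7*, the cornichons *Cnih2* and *Cnih3*, the Shisa proteins *Shisa6* and *Shisa9*, and *Gsg1l*. All 10 passed the filter on low counts, with between 435 counts for *Cacng4* in mouse SP 3 and 8138 counts for *Cnih2* in mouse SP 2.

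The pore of an AMPA receptor is formed by the products of *Gria1* to *Gria4*, and auxiliary subunits bind to it from the endoplasmic reticulum onward. TARPs carry receptors to the cell surface, hold them at the synapse and slow their closing, and cornichons speed their export and also prolong their currents. Shisa proteins alter desensitization, the loss of current while glutamate is still bound, and Gsg1l is known as a negative regulator that delays recovery from desensitization. Because each protein tunes the receptor differently, the proportion of auxiliary subunits matters for synaptic strength and long-term potentiation (LTP).

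The ends of the coding sequences are shown because type I TARPs resemble each other there, as do the Shisa genes. Those of *Cnih2* and *Cnih3*, which span an exon junction, are not shown. Each line gives the last 30 coding bases before the stop codon, read 5′ to 3′ from the GENCODE M21 transcript with the longest complete coding sequence on GRCm38, with the last 12 bases in capitals. In type I TARPs these 12 bases encode the end of the tail that binds postsynaptic scaffold proteins.
Cacng2: aacacagccaaccgccggACCACGCCCGTA
Cacng3: aatccggccaacagacgtACCACGCCTGTC
Cacng4: agcatgctgaaccggcggACGACTCCCGTG
Cacng8: aacacgctcaacaggaaaACCACGCCCGTG
Cacng7: gaccatctccacatctccACTTCGCCGTGC
Shisa6: tacacagccagcaagactGAAGTGACCGTG
Shisa9: atcactaacagcaaaacaGAAGTGACTGTC
Gsg1l: cgtcagtgctgggtcctgGGGCACTGGGTG
Compared with *Cacng2*, the bases in capitals differed at 2 positions in *Cacng3*, 3 in *Cacng4* and 1 in *Cacng8*, but at 6 in the type II TARP *Cacng7*. *Shisa9* differed from *Shisa6* at 2 positions, and *Gsg1l* differed from *Cacng2* at 10. These stretches lie in the last exon of each gene, on the minus strand at chr15:77995152-77995181 for *Cacng2* and at chr7:125881144-125881173 for *Gsg1l*.

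Both groups were male wild-type C57BL/6N mice of 8 to 10 weeks. The 3 SP mice received 100 µL of 10 µM SP subcutaneously for 14 consecutive days, and the 3 vehicle mice received the same volume of saline. Each mouse gave 1 stranded mRNA library of hippocampal tissue, and mice of each group are numbered 1 to 3, a number that the labels call a batch. Group names follow the deposited labels throughout, and SP relative to vehicle is the direction of every difference. The study reports *Gsg1l* as upregulated and the myelin genes *Mag* and *Mbp* as downregulated after SP. Under the deposited labels their log2 fold changes are -0.60, 0.37 and 0.38, the opposite sign in each. No measurement in the libraries checks the labels, so which direction is right cannot be settled here. Exchanging the names of the groups would turn every sign below and leave every size on the log2 scale as it is. The libraries held 22349964 to 27605935 counts. Markers of dentate granule, CA1 and CA3 pyramidal cells were present in every library, summing to 257 to 413, 517 to 592 and 232 to 289 CPM, a count divided by the scaled size of its library. Mouse SP 1 stood apart in the choroid plexus, the epithelium that makes cerebrospinal fluid, with 168 CPM over 5 markers where the other mice had 2758 to 4665 CPM. In bulk tissue, fewer cells that express a gene and less RNA per cell cannot be told apart.

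To ask whether SP altered the expression of these subunits, the counts of all 17069 expressed genes were compared by edgeR's quasi-likelihood test, with the replicate number as a block. At FDR < 0.1 and |log2FC| > 0.3, the study's thresholds, the test called 0 of the 10 subunits. Of all tested genes, 0.0293% were called. DESeq2, the study's tool, called 1 of the 10 with the same block, *Gsg1l*, where 0.211% of tested genes were called. With limma-voom 0 were called, where 0.0117% of tested genes were. An unadjusted p under 0.05 was found for 4 of the 10, *Cnih2* and *Cacng8* with positive and *Gsg1l* and *Shisa9* with negative log2 fold changes, against 10.1% of all tested genes. The expression of the 3 SP mice did not overlap with that of the 3 vehicle mice in 4 of the 10 genes, against 18.2% of tested genes. SP was the higher group in 3 of these (*Cnih2*, *Cacng8* and *Shisa6*, against 9.19% of tested genes) and the lower in 1 (*Gsg1l*, against 9.03%). The median log2 fold change of the 10 was -0.022, beside 0.0015 over all tested genes, while their median absolute value was 0.16 beside 0.090. The set was chosen with earlier results of these data known. Without *Gsg1l*, the median absolute value of the other 9 was 0.13. Of these 9, an unadjusted p under 0.05 was found for 2 with positive and 1 with negative fold changes.

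*Gsg1l* had the largest difference of the set; in GRCm38 the gene (ENSMUSG00000046182) spans 125878420 to 126082411 on the minus strand of chromosome 7. It measured 48.3, 40.1 and 42.6 CPM in vehicle mice 1, 2 and 3 and 30.4, 25.3 and 30.8 CPM in SP mice 1, 2 and 3. Every SP mouse was below every vehicle mouse, with mouse SP 2 the lowest. The means were 43.7 ± 4.23 CPM for vehicle and 28.9 ± 3.06 CPM for SP (SD, n = 3 mice each). The log2 fold change was -0.60 (95% interval -0.76 to -0.44), which is 33.9% less transcript in the libraries labelled SP, with an interval from 26.2% to 40.9% less. Its FDR by edgeR was 0.107, just outside the threshold, and by the unadjusted p it stood at rank 6 of the 17069 genes. Within the numbered pairs the log2 ratios were -0.67, -0.66 and -0.47, all in the same direction. By absolute log2 fold change, 95.7% of tested genes lay below it.

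**Figure D1:**
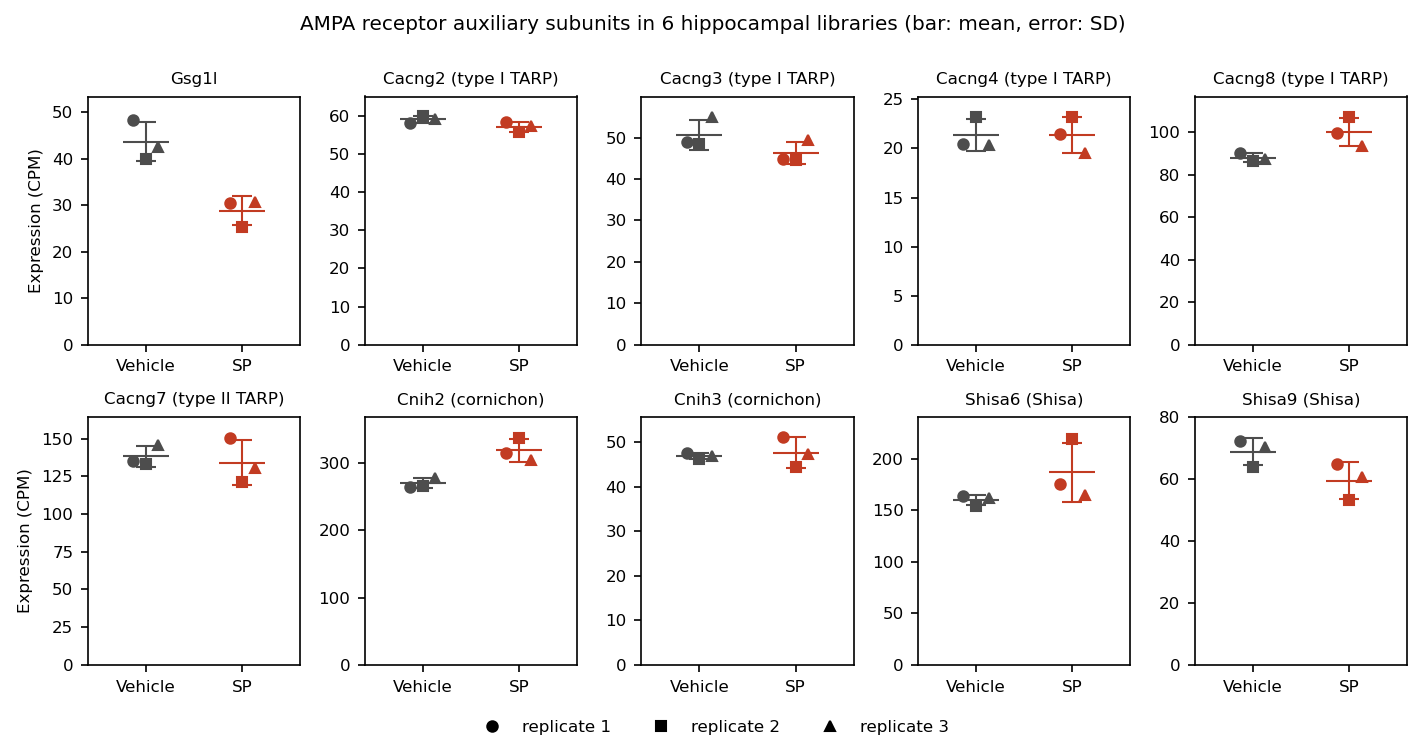
Expression in CPM (vertical axis from 0) of the 10 auxiliary subunits in vehicle (grey) and SP (red) mice. Symbols mark the replicate number, the bar the mean and the whiskers the SD over 3 mice, and *Gsg1l* is the panel in which SP mice lie at 25.3 to 30.8 CPM, all below the vehicle mice.

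Whether *Gsg1l* passed both thresholds depended on the setting. All settings used the same labels, so they do not check its direction. Over 18 settings its log2 fold change ran from -0.66 to -0.51 and was negative in all 18, and 6 of them placed it past both thresholds. The 6 were DESeq2 with the block (FDR 0.00162) and without it (FDR 4.54e-05), edgeR with no filter on low counts (FDR 0.000119), edgeR without both mice of replicate 2 (FDR 0.0382) or of replicate 3 (FDR 0.0387), and edgeR without the block and without mouse SP 3 (FDR 0.0572). These settings also called more genes in total, with 0.211%, 0.779% and 1.37% of tested genes called by DESeq2 with the block, DESeq2 without it and edgeR with no filter. In the settings that did not place *Gsg1l* past both thresholds, its FDR ran from 0.101 to 0.686. The lowest came with relative log expression normalization and the highest without vehicle mouse 3 and without the block, both by edgeR. Without mouse SP 2, the lowest for this gene, the log2 fold change was -0.51 in the fit without the block. Without mouse SP 1, the library with few choroid plexus transcripts, it was -0.64 in the same fit.

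**Figure D2:**
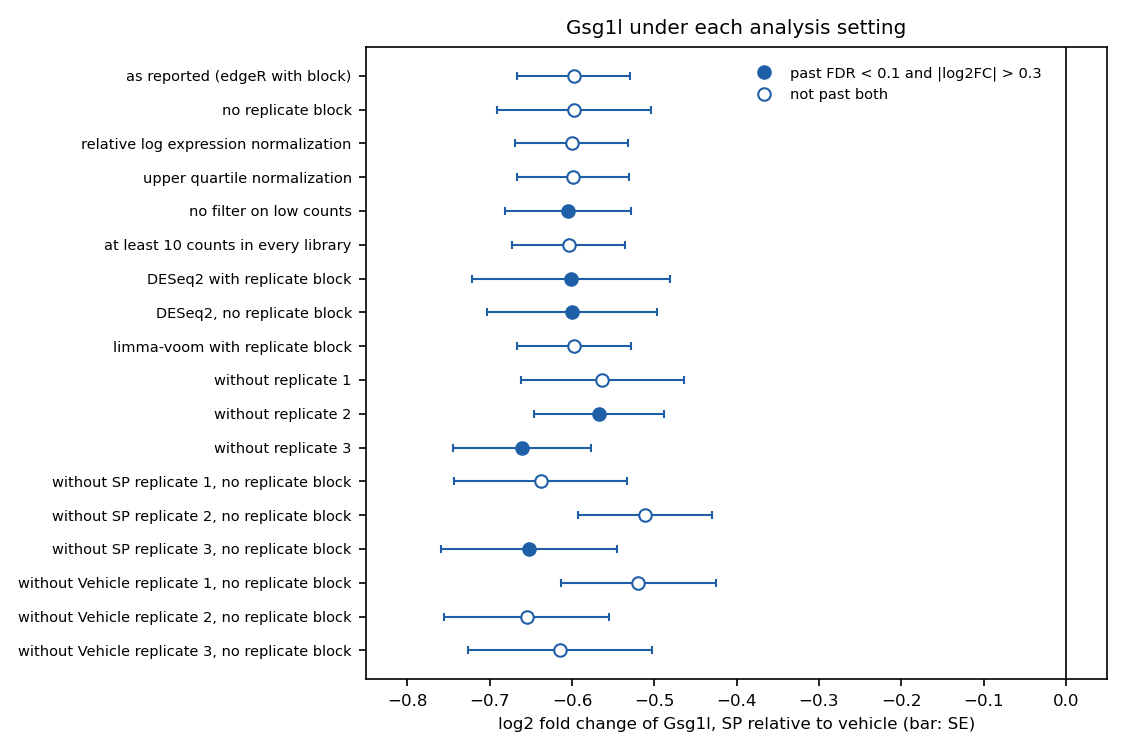
Log2 fold change of *Gsg1l* (horizontal axis, bars show the standard error) in each of 18 analysis settings. Filled points passed FDR < 0.1 and |log2FC| > 0.3, which 6 settings did, and every estimate lies between -0.66 and -0.51.

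The sums of 4 marker lists did not overlap between the groups, in the direction of *Gsg1l* or in the opposite one. The sums of all other marker lists overlapped. Among single tested genes, the groups did not overlap in 18.2%. In each of the 4 sums, mouse SP 2 lay farthest from the vehicle mice. The 8 markers of neocortical layer neurons, cells of the adjoining cortex, summed to 284 to 310 CPM in vehicle and 222 to 281 CPM in SP mice, and 3 of the 8 had an unadjusted p under 0.05, all with negative fold changes. The 4 leptomeningeal fibroblast markers summed to 116.5 to 131 CPM in vehicle and 67.9 to 116.0 CPM in SP mice, with 0 of 4 under this p. In the opposite direction, 5 oligodendrocyte markers summed to 3745 to 4213 CPM in libraries labelled vehicle and 4307 to 6208 CPM in those labelled SP, 4 of 5 with p under 0.05, and 5 CA3 markers to 232 to 249 and 258 to 289 CPM, 3 of 5 with p under 0.05. An unadjusted p under 0.05 was found with a positive fold change for 4.48% and with a negative one for 5.59% of all tested genes. None of the genes in these 4 lists was at 0 counts in every library. None was called at FDR < 0.1, where 0.0293% of all tested genes were called. Their part in the difference in *Gsg1l* was not tested. The 4 pan-neuronal markers summed to 4281 to 4367 CPM in vehicle and 4250 to 4409 CPM in SP mice, so that the groups overlapped.

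Among type I TARPs, *Cacng8* was the only one of the 4 with an unadjusted p under 0.05. *Cacng8* (chromosome 7 from 3390683 to 3415648) encodes the TARP that is most typical of the hippocampus and is required there for normal receptor numbers. It had 90.4, 86.6 and 87.3 CPM in vehicle mice and 99.7, 107 and 93.7 CPM in SP mice. All SP mice were above all vehicle mice, and SP 2 was the highest. Its log2 fold change was 0.18 (SE 0.0597, FDR 0.416 by edgeR), or 13.6% more with an interval from 3.07% to 25.1% more. Without both mice of replicate 2 it was 0.12, still positive, and it was positive in 18 of 18 settings.

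*Cacng3* (chromosome 7 from 122670492 to 122769393) measured 48.9, 48.5 and 54.9 CPM in vehicle and 44.96, 44.49 and 49.48 CPM in SP mice. It was lower in SP in 3 of 3 numbered pairs, but mouse SP 3 lay within the vehicle range. The log2 fold change was -0.13 (95% interval -0.26 to 0.00040, FDR 0.495 by edgeR), and -0.072 without vehicle mouse 3 in the fit without the block. *Cacng2* (chromosome 15 from 77991748 to 78120028) encodes stargazin, the founding TARP, which is absent in the stargazer mouse. Its values were 58.2 to 60.1 CPM in vehicle and 55.8 to 58.4 CPM in SP mice, with a log2 fold change of -0.048 (95% interval -0.18 to 0.084). *Cacng4* (chromosome 11 from 107732357 to 107794557), a TARP known also from glial cells and from development, ranged over 20.4 to 23.2 CPM in vehicle and 19.5 to 23.2 CPM in SP mice. Its 95% interval, -0.16 to 0.17 around a log2 fold change of 0.0028, ran from 10.8% less to 12.5% more.

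The type II TARP *Cacng7* (chromosome 7 from 3332955 to 3368221), which acts mainly on calcium-permeable receptors, lies next to *Cacng8* in the genome but did not share its pattern. It had 135, 133 and 146 CPM in vehicle mice and 151, 121 and 131 CPM in SP mice. The highest and the lowest value of the 6 were both in SP mice, and the log2 fold change was -0.047 (95% interval -0.21 to 0.12). *Cacng6*, the third gene of this cluster outside the TARPs, was barely expressed, at 0.731 to 1.25 CPM over the 6 mice.

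The cornichons differed from each other in level and in the difference between the groups. *Cnih2* (ENSMUSG00000024873, chromosome 19 from 5092868 to 5098521), the predominant cornichon of hippocampal pyramidal cells, had 265, 267 and 278 CPM in vehicle mice. In SP mice it had 316, 338 and 304 CPM, and again no SP mouse overlapped with the vehicle mice. The means were 270 ± 7.40 and 319 ± 17.1 CPM (SD, n = 3 mice each), and the log2 fold change was 0.24 (SE 0.0576, FDR 0.338 by edgeR). This is 18.2% more, with an interval from 7.66% to 29.8% more. Its log2 fold change was 0.19 without both mice of replicate 2 and 0.30 without both of replicate 3. *Cnih3* (chromosome 1 from 181352628 to 181460641) had 46.2 to 47.5 CPM in vehicle and 44.4 to 51.2 CPM in SP mice, and the groups overlapped. The log2 fold change was 0.022, with a 95% interval from -0.12 to 0.17.

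The Shisa proteins had fold changes of opposite sign and similar size. *Shisa6* (chromosome 11 from 66211725 to 66525964), whose product keeps synaptic receptors from desensitizing, had 164, 154 and 162 CPM in vehicle mice and 176, 220 and 165 CPM in SP mice. The groups did not overlap, yet mouse SP 3 exceeded vehicle mouse 1 by less than 1 CPM, and mouse SP 2 stood far above the rest. The log2 fold change of 0.21 (SE 0.0919, FDR 0.499 by edgeR) was 0.064 without both mice of replicate 2. *Shisa9* (chromosome 16 from 11984113 to 12270902), whose product promotes desensitization and is abundant in dentate granule cells, had 72.1, 63.9 and 70.3 CPM in vehicle mice and 64.6, 53.1 and 60.6 CPM in SP mice. It was lower in SP in 3 of 3 numbered pairs, although mouse SP 1 lay above vehicle mouse 2. The log2 fold change was -0.21 (SE 0.0556, FDR 0.351 by edgeR), or 13.7% less with an interval from 5.57% to 21.2% less. It was negative in 18 of 18 settings, and -0.13 without mouse SP 2 in the fit without the block.

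**Figure D3:**
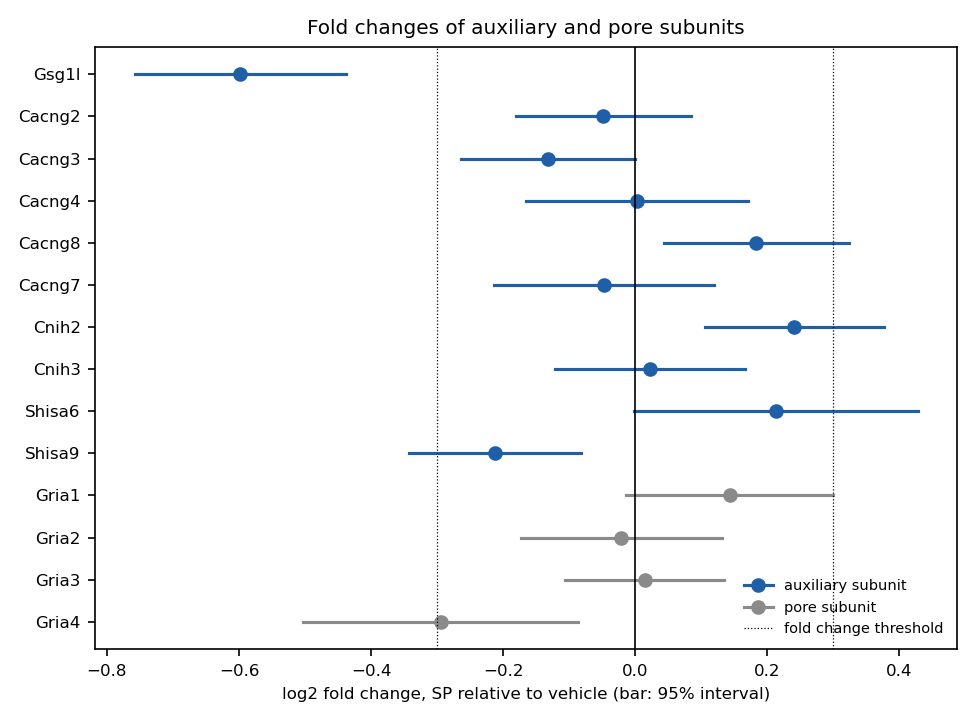
Log2 fold change with its 95% interval (horizontal axis) for the 10 auxiliary subunits (blue) and the 4 pore subunits (grey). Dotted lines mark the fold change threshold of 0.3, and *Gsg1l* at -0.60 is the only gene whose whole interval lies beyond it.

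Levels of different genes were compared per length, as CPM per kb of merged exons (from GENCODE M21). *Cnih2* was by far the most abundant, at 197 ± 5.41 CPM per kb in vehicle and 233 ± 12.5 in SP mice (SD, n = 3 each). *Cacng7* followed at 56.6 ± 2.77 in vehicle and 54.9 ± 6.21 in SP mice, *Cacng8* at 37.6 ± 0.863 and 42.7 ± 2.88, and *Shisa6* at 21.5 ± 0.697 and 25.1 ± 3.89 CPM per kb. These 4 genes kept this order in 6 of 6 mice, with no overlap between neighbours. *Cacng3* and *Cnih3* came next at 18.3 ± 1.31 and 17.0 ± 0.243 CPM per kb in vehicle mice, and the ranges of these 2 genes overlapped over the 6 mice. *Shisa9* had 13.1 ± 0.824 and *Cacng4*, the lowest, 5.97 ± 0.458 CPM per kb in vehicle mice. *Gsg1l* and *Cacng2* did not have the same order in both groups. In vehicle mice *Gsg1l* had 12.3, 10.2 and 10.9 CPM per kb beside 10.6, 10.9 and 10.7 for *Cacng2*, while in SP mice it had 7.76, 6.45 and 7.85 beside 10.6, 10.1 and 10.4. *Gsg1l* was above *Cacng2* in 2 of the 6 mice, both of them vehicle mice. Using the longest transcript of each gene as its length left the order of group means as it was.

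**Figure D4:**
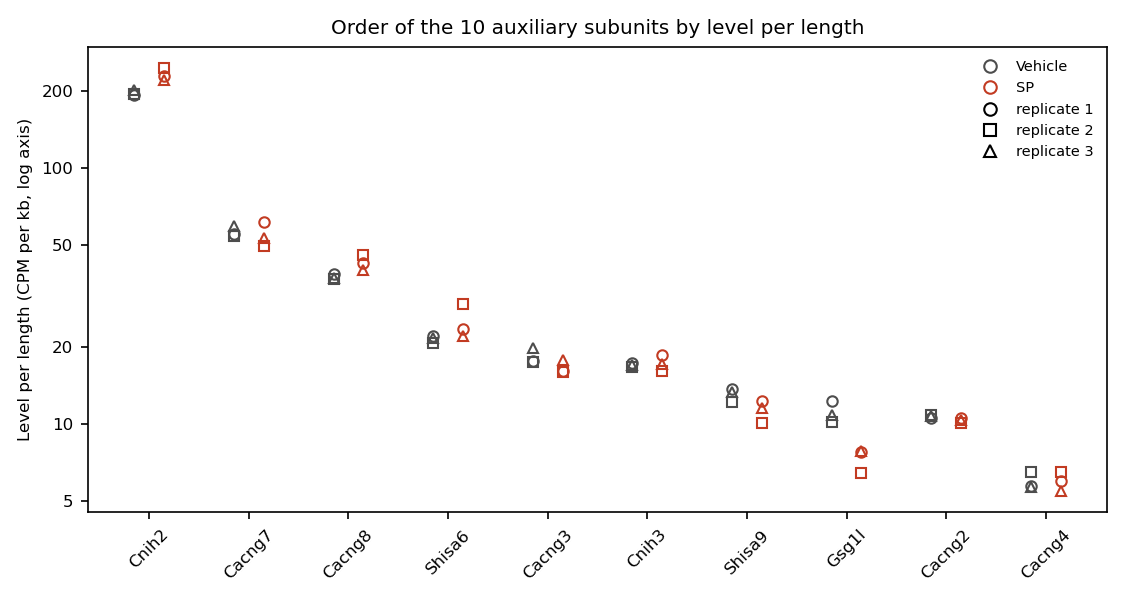
Level per length (CPM per kb of merged exons, log axis) of the 10 auxiliary subunits, ordered by their mean in vehicle mice. Grey marks vehicle and red marks SP mice, 1 symbol per mouse, with *Cnih2* at 193 to 247 CPM per kb at the top and *Gsg1l* lower in SP than in vehicle mice.

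The makeup of the auxiliary pool was described as the percent each gene contributed to the summed level per length of the 10, a measure that does not depend on how libraries are scaled. The share of *Cnih2* averaged 50.7% in vehicle mice, none of them above 51.1%, and was 53.6%, 56.5% and 54.4% in SP mice. That of *Gsg1l* was 3.19%, 2.68% and 2.72% in vehicle and 1.80%, 1.48% and 1.92% in SP mice, as labelled. Neither gene's share overlapped between the groups. The shares of *Cacng3*, *Shisa9* and *Cacng2* were also lower in every SP than in every vehicle mouse, at 3.93% against 4.70%, 2.67% against 3.37% and 2.45% against 2.76% on average. Shares add up to a fixed total and are therefore not independent of each other. The summed level itself was 386.5, 380.9 and 399.5 CPM per kb in vehicle and 429.9, 436.8 and 408.1 CPM per kb in SP mice, without overlap. Its mean was 389.0 in vehicle and 424.9 in SP mice, beside 197.1 and 233.1 for *Cnih2* alone. The difference in the sum is therefore not separate from that in *Cnih2*, and does not show a larger pool of the other genes.

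Set against the receptor, *Gsg1l* amounted to 4.96%, 4.14% and 4.33% of the summed level per length of *Gria1* to *Gria4* in vehicle mice. In SP mice this was 2.93%, 2.36% and 3.15%. Relative to the summed type I TARPs, *Gsg1l* stood at 17.0%, 14.2% and 14.8% in vehicle and 10.3%, 8.24% and 10.7% in SP mice. The ratio of *Shisa6* to *Shisa9* was 1.601, 1.698 and 1.618 in vehicle and 1.91, 2.91 and 1.91 in SP mice. In each of these 3 ratios the groups did not overlap, and the spread in the last one came mostly from mouse SP 2. The ratios reuse the values of single genes given above, so they are not independent evidence. With 3 mice in each group, an exact permutation test of such a ratio that ignores the replicate number cannot give a two-sided p below 0.1. None was run.

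The edgeR test called 0 of the 4 pore subunits, where 0.0293% of all tested genes were called. The groups did not overlap in 2 of them, *Gria1* and *Gria4*, against 18.2% of tested genes. *Gria1* had 958, 941 and 946 CPM in vehicle and 1042, 1126 and 978 CPM in SP mice, without overlap, and a log2 fold change of 0.14 (95% interval -0.014 to 0.30, FDR 0.524 by edgeR), which was 0.085 without both mice of replicate 2. *Gria2*, which makes receptors impermeable to calcium, and *Gria3* had log2 fold changes of -0.021 and 0.014, and their groups overlapped. *Gria4*, a subunit typical of interneurons in the adult, had 79.6, 69.7 and 70.3 CPM in vehicle and 69.2, 46.9 and 64.7 CPM in SP mice. Its log2 fold change was -0.29 (SE 0.0891, FDR 0.404 by edgeR), and -0.16 without both mice of replicate 2, the pair with the lowest SP value. The 7 markers of GABAergic interneurons summed to 652 to 730 CPM in vehicle mice and to 523 CPM in mouse SP 2, beside 670 and 703 CPM in SP 1 and SP 3, and their part in the *Gria4* values was not tested.

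Among 17 other proteins found in native AMPA receptor complexes, edgeR called 0, where 0.0293% of all tested genes were called. An unadjusted p under 0.05 was found for 7 of the 17, against 10.1% of all tested genes. The 5 with positive fold changes, against 4.48% of all tested genes, included all 3 neuronal pentraxin genes, whose secreted or membrane-bound products cluster receptors at synapses. *Nptx1* had 542, 541 and 516 CPM in vehicle and 681, 751 and 575 CPM in SP mice, a log2 fold change of 0.32 (SE 0.0722, FDR 0.326 by edgeR). *Nptx2* and *Nptxr* had log2 fold changes of 0.22 and 0.15. In none of the 3 genes did the groups overlap, where 9.19% of tested genes had SP higher without overlap. The other two were *Olfm1*, which encodes a secreted noelin, at 0.19 and *Prrt2*, a gene of presynaptic release, at 0.20. The 2 with negative fold changes, against 5.59% of tested genes, were *Olfm2*, another noelin, and *Vwc2l*, a secreted protein with von Willebrand factor C domains. *Olfm2* had 46.2, 45.4 and 43.5 CPM in vehicle and 34.8, 22.1 and 36.2 CPM in SP mice, and *Vwc2l* had 13.8, 10.5 and 10.2 CPM in vehicle and 5.11, 2.66 and 7.54 CPM in SP mice. Their log2 fold changes were -0.56 and -1.23, and mouse SP 2 was lowest in both. Without both mice of replicate 2 the log2 fold change of *Olfm2* was -0.34. DESeq2 with the block called *Olfm2*, *Vwc2l* and *Nptx1*.

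Of 6 proteins that assemble the receptor in the endoplasmic reticulum, edgeR called 0, where 0.0293% of all tested genes were called. The unadjusted p was under 0.05 for 1 of the 6, against 10.1% of all tested genes. This was *Abhd12*, a lipid hydrolase gene, with a log2 fold change of 0.13. *Frrs1l* and *Cpt1c*, which encode core assembly factors, had 0.081 and 0.056. *Sacm1l*, a phosphoinositide phosphatase, had -0.12, with SP lower without overlap, against 9.03% of tested genes. Among 13 scaffolds and trafficking adaptors edgeR called 0, against the same 0.0293% of all tested genes. Their log2 fold changes ran from -0.23 for *Lrrtm2*, an adhesion protein that binds neurexins, to 0.093 for *Lrrtm1*. *Lrrtm2* was the only 1 of the 13 with an unadjusted p under 0.05, against 10.1% of all tested genes. It had 68.7, 66.5 and 70.0 CPM in vehicle and 57.4, 56.4 and 60.7 CPM in SP mice. Of 10 paralogs that are not part of the receptor complex, 6 passed the filter on low counts. Of those 0 were called, against 0.0293% of all tested genes. Log2 fold changes of these 6 ran from -0.23 for *Shisa2* to 0.11 for *Cacng6*. *Cnih1*, a cornichon of general protein export, had a log2 fold change of 0.021 (95% interval -0.11 to 0.15). *Shisa5*, an endoplasmic reticulum protein linked to cell death, had -0.22 with an unadjusted p of 0.00923 by edgeR.

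**Figure D5:**
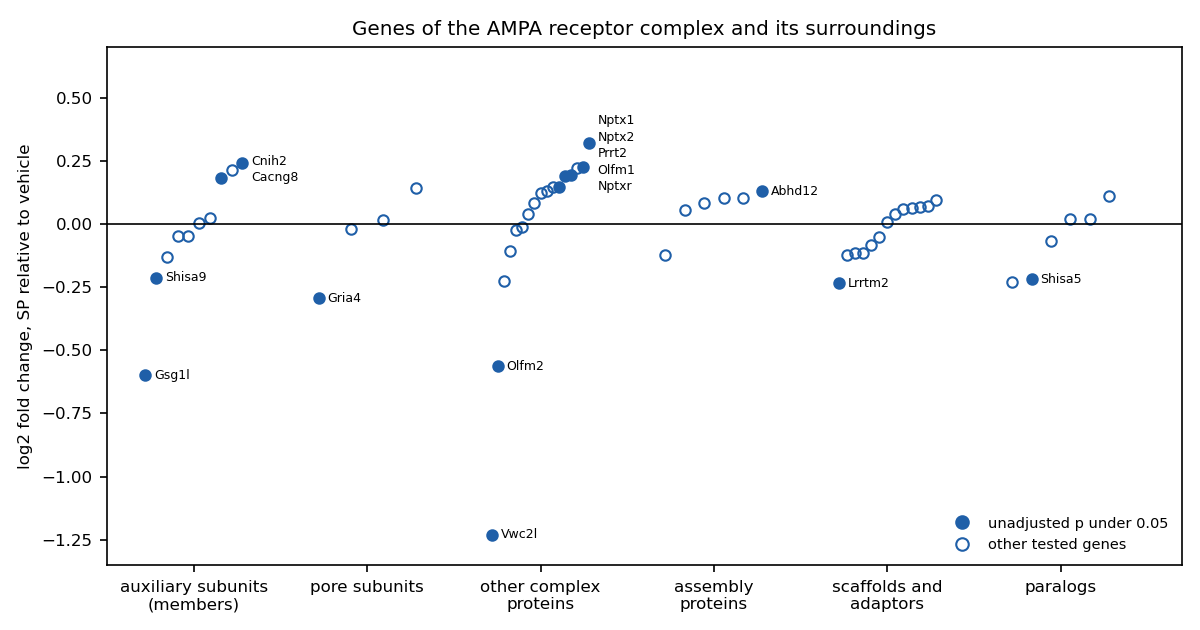
Log2 fold change (vertical axis) of each tested gene of the auxiliary subunits and of the 5 other lists, sorted within each list. Filled points with names had an unadjusted p under 0.05, from -1.23 for *Vwc2l* to 0.32 for *Nptx1*, and 0 of them passed FDR < 0.1.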

How the data were processed

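The authors deposited expected counts per gene, which they made in the Nextflow RNAseq pipeline (Trim Galore for trimming, STAR for alignment to GRCm38, Salmon for quantification) and which are not scaled for library size or gene length. Tool versions and annotation release are not given in the sources used here. Salmon divides reads between genes, so 23.48% of the values above 0 were not whole, and counts were rounded. Of the 55421 genes, edgeR's filterByExpr (minimum count 10, minimum total 15) kept 17069. Libraries were scaled by TMM and tested with glmQLFit and glmQLFTest in edgeR 4.0.16 (R 4.3.3), with the replicate number as a block because the study's methods adjust for replicates. The labels call this number a batch, and treating it as a pairing of the mice is an assumption. Deviations from group means in same-numbered mice had Pearson's r of only 0.0140, -0.0656 and 0.0734 across genes. Benjamini-Hochberg FDR ran over all tested genes. DESeq2 1.42.0, the tool that the study used for this comparison, and limma 3.58.1 (voom) were alternatives. So were other normalizations, filters and thresholds and fits without each pair or mouse. The tests were tried on simulated data with known fold changes, in a single draw. There edgeR with the block missed part of the changed genes and made more false calls than its nominal rate. A count of 0 allows up to 0.109 to 0.135 CPM (3 counts of each library, counting error only).

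The 10 members and all lists were chosen with earlier results of these data known. Named genes are the members, the pore subunits, list genes with an unadjusted p under 0.05, the ends of each list's range, genes of a shared cluster, and the 5 genes most like *Gsg1l*, of which 1 is not reported here. *Cpt1c*, *Frrs1l* and *Cnih1* were named outside this rule for their function, after their values were seen. Of 31-base sequences, at most 6.45% (*Cacng2*) occur in another gene's transcripts. *Yif1a* overlaps *Cnih2* on the other strand with at most 273 counts, and whether counting used strand is not given in the sources used here.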

Additional observations from a re-analysis of the deposited data

How the results depend on the processing

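The number of genes called over the whole table, 5 with the replicate block, was 2 with no replicate block, 2 with limma-voom, 36 with DESeq2 and the block, 133 with DESeq2 without it, 384 with no filter on low counts, 0 with at least 10 counts in every library (1663 with an unadjusted p under 0.05) and 0 at FDR < 0.05 (1720 with that p). Leaving out numbered pairs gave 15 to 92 genes, and leaving out single mice, in fits with no block whose count with all mice was 2, gave 1 to 337, the most without mouse SP 3. For the 10 auxiliary subunits the count of 0 became 1 with no filter and with either DESeq2 fit, and 0 to 1 when mice were left out. The gene was *Gsg1l* each time, with a log2 fold change of -0.60 in these 3 fits, -0.66 to -0.56 with pairs left out and -0.65 without mouse SP 3 (-0.66 to -0.51 over all fits with mice left out). For the 46 tested related genes the count of 0 became 4 with no filter, 3 and 2 with DESeq2 with and without the block, and 0 to 4 with mice left out. *Cacng4* had -0.0035 with no filter and with at least 10 counts in every library. With pairs left out, log2 fold changes crossed 0 in *Cacng4* (-0.030 to 0.037), *Cnih3* (-0.021 to 0.061), *Cacng7* (-0.15 to 0.012), *Gria2* (-0.072 to 0.029) and *Gria3* (-0.0070 to 0.054). With single mice left out they crossed it in *Cacng4* (-0.057 without SP 2, -0.025 without vehicle 1, -0.029 without vehicle 3), *Cnih3* (-0.031 without SP 1), *Cacng7* (0.027 without SP 2), *Gria2* (0.0043 without vehicle 3) and *Gria3* (-0.0048 without vehicle 2), and the causes were not tested. Leaving out the block changed no call among the subunits. Shares of the pool depend on length: without division by length *Cnih2* made up 31.9% of the pool in SP mice in place of 54.9%. On that scale the share of *Cacng3* overlapped between the groups, and that of *Cacng8* was higher in every SP than in every vehicle mouse.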

Other observations

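The 4 tested genes described here as closest to *Gsg1l* in log2 CPM over the 6 mice were *Zfp641*, *Mtmr11*, *Chrna4* and *Satb1*, with Pearson's r of 0.993, 0.989, 0.989 and 0.989. The 6 mice fall into 2 treatment groups, so that r is a description of likeness, without a test. Their log2 fold changes were -0.18 in *Zfp641*, -0.16 in *Mtmr11*, -0.55 in *Chrna4* and -0.27 in *Satb1*, beside -0.60 in *Gsg1l*. *Chrna4*, a nicotinic receptor subunit, had 28.1, 24.7 and 26.0 CPM in vehicle and 17.98, 15.94 and 19.98 CPM in SP mice. *Satb1*, a chromatin organizer known from cortical interneurons, had 96.5, 90.8 and 94.4 CPM in vehicle and 79.2, 72.8 and 82.4 CPM in SP mice. All 4 had an FDR of at least 0.237 by edgeR.

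*Cacng4* lies on chromosome 11 between *Cacng1*, a subunit of the skeletal muscle calcium channel, and *Cacng5*, a type II TARP known from hippocampal area CA2. *Cacng1* had at most 0.0426 CPM in any mouse, below the limit that 3 counts allow. *Cacng5* had 11.3, 16.4 and 10.5 CPM in vehicle and 11.2, 16.6 and 12.5 CPM in SP mice. The values in both mice numbered 2 were the highest of their groups, and the log2 fold change between the groups was 0.084 (95% interval -0.13 to 0.30).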
